A study of Mus musculus with 10 samples.

Results

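The COUP-TF genes of the mouse, Nr2f1 (COUP-TFI), Nr2f2 (COUP-TFII) and Nr2f6 (EAR2), were followed through cardiomyocytes of both upper and lower heart chambers. They were taken by symbol, and all 3 were found among the 25239 genes of the tables and were among the 12422 genes that averaged at least 10 normalized reads and were tested. Cardiomyocytes, the contractile muscle cells of the heart, came from wild-type (WT) mice, with 5 atrial and 5 ventricular libraries of total RNA. All 10 libraries carried the same genotype and no treatment is given, and neither age nor strain is given in the labels. Whether replicates are different animals is not stated, so the p-values speak of the scatter among libraries, part of which may be technical.

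COUP-TFs are orphan members of the nuclear receptor family, proteins that bind DNA through paired zinc fingers and for which no hormone has been settled as the natural ligand. They bind repeats of the motif AGGTCA as dimers, often repress, and can occupy sites that retinoid receptors also use. In mice Nr2f2 is known for its role in atrial cardiomyocyte identity and in venous and lymphatic endothelium, Nr2f1 for the patterning of the cerebral cortex and for expression in developing atria, and Nr2f6 for repression in lymphocytes.

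The family relation is shown by the stretch of coding sequence most alike across all 3 genes, which codes for part of the zinc fingers. Each line gives 150 bases of coding sequence, 5′ to 3′ on the coding strand, from GENCODE M21 transcripts on GRCm38, and capitals mark positions that are not identical in all 3 genes.
Nr2f1 (chr13:78198181-78198330, minus strand, 1 exon): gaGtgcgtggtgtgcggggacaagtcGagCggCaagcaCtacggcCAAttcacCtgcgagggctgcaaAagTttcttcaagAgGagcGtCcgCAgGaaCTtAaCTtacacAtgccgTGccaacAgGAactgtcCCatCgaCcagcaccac
Nr2f2 (chr7:70359949-70360098, minus strand, 1 exon): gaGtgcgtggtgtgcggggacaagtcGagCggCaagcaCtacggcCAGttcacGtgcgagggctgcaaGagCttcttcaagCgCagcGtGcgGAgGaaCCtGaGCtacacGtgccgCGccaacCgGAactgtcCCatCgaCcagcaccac
Nr2f6 (chr8:71378450-71381106, minus strand, 2 exons with the intron left out): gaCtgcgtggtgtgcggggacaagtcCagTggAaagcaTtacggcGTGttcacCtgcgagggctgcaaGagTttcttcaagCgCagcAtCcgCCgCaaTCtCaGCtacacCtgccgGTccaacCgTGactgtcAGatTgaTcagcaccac
In this window 117 positions were identical in all members and 33 were not, 22 of them at the last base of a codon. Nr2f1 and Nr2f2 differed at 15 positions, Nr2f2 and Nr2f6 at 25, and Nr2f1 and Nr2f6 at 29. Over the whole aligned coding sequence, Nr2f1 and Nr2f2 were 82.2% identical, while Nr2f6 was 69.4% identical to Nr2f1 and 68.4% identical to Nr2f2. The longest run of bases shared by transcripts of Nr2f1 and Nr2f2 was 59, and of the 3158 stretches of 50 bases in the Nr2f1 transcript 10 also occurred in that of Nr2f2. Nr2f6 shared no run longer than 23 bases with either, so a read of 50 bases could match 2 members exactly only in a small part of Nr2f1 and Nr2f2.

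Libraries fell into 2 sets that the labels do not name and that each held both chambers. Replicates 1 and 2 held 1790402 to 4445287 reads, of which the ribosomal RNA precursor Rn45s took 0.215% to 0.480%. Replicates 3 to 5 held 11163805 to 12842635 reads, of which Rn45s took 23.1% to 29.8%. Values of each set are given beside the pooled ones. Atrial chamber genes were higher in the libraries labelled atrial for 10 of 11 listed genes (median log2 difference 4.44), with Kcna5 the other way. All 8 listed ventricular chamber genes were higher in ventricular libraries (median -5.84). Values below are normalized reads, that is reads divided by a size factor for the library. Log2 differences are atrial minus ventricular on log2(normalized reads + 1) ± SE, from limma with Benjamini-Hochberg adjustment over all genes tested.

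Of the 3 members, Nr2f1 and Nr2f2 were higher in atrial cardiomyocytes and Nr2f6 was higher in ventricular cardiomyocytes (limma, adjusted p below the threshold of 0.05 in each). The tables as a whole give the background to this count. Of the 12422 genes tested, 14.7% were called in either direction, 8.12% toward atrial and 6.56% toward ventricular cells. With the replicate number as a block, 32.3% of the genes tested were called, 16.3% as atrial and 16% as ventricular. Atrial and ventricular ranges lay apart for all members, as they did for 14.4% of all genes tested. In these bulk libraries fewer cells of a type and less RNA per cell cannot be told apart.

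**Figure D1:**
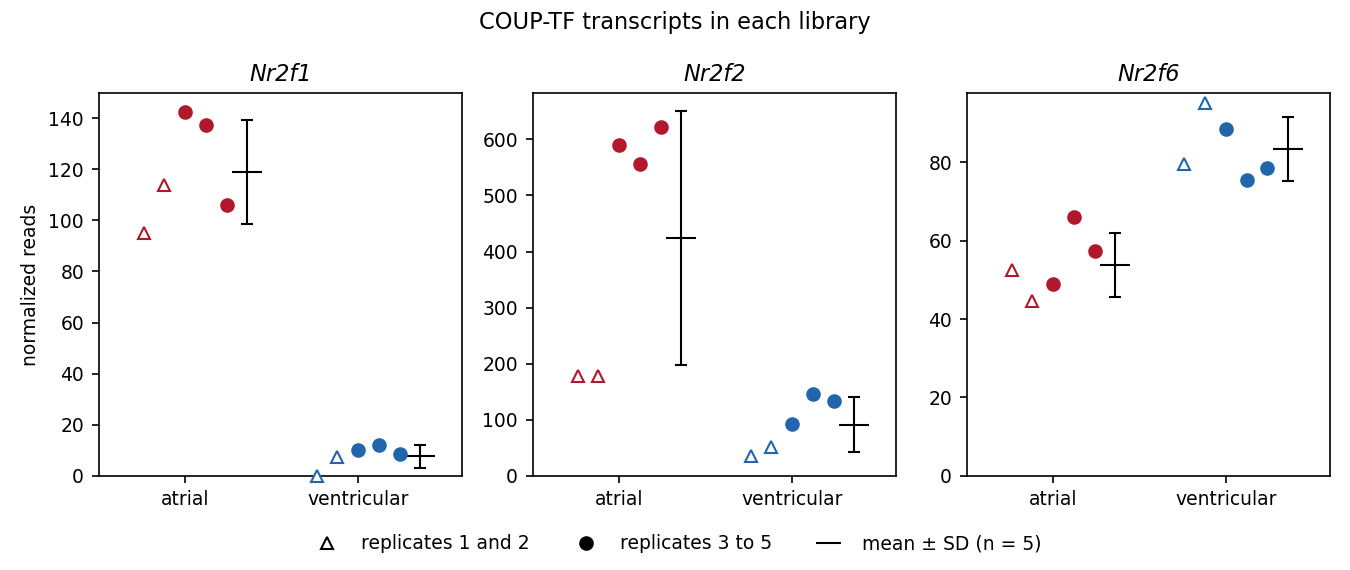
Normalized reads (vertical axis, from 0, scaled separately for each gene) of the COUP-TF genes in 5 atrial (red) and 5 ventricular (blue) libraries; open triangles are replicates 1 and 2, filled circles replicates 3 to 5, and black bars the mean ± SD. The chambers do not overlap for any of the 3 genes, and the atrial values of Nr2f2 split by library set, at 178 in replicates 1 and 2 and 555 to 622 in replicates 3 to 5.

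Nr2f1 had the largest chamber difference of the family. It lies on the minus strand of chromosome 13 (ENSMUSG00000069171.14, chr13:78188973-78199757, GRCm38). Atrial replicates 1 to 5 held 95.2, 114, 143, 137 and 106 normalized reads, from 69 to 251 reads. Ventricular replicates 1 to 5 held 0, 7.31, 9.91, 12.03 and 8.65, from 0, 3, 16, 18 and 14 reads. Every atrial library was above every ventricular one, and the gap between the nearest values was 83.1 normalized reads. The means were 119 ± 20.3 in atrial and 7.58 ± 4.58 in ventricular libraries (SD, n = 5), which is 15.7-fold. The log2 difference was 4.19 ± 0.61 (limma, adjusted p = 0.00101). By size of the log2 difference Nr2f1 ranked 58 of 12422 genes.

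The size of the Nr2f1 difference rests in part on the shallow ventricular replicate 1. Its 0 reads were taken to allow up to 3 reads, worth 10.4 normalized reads there. The upper 95% counting limit of 0 reads is somewhat higher, at 3.69 reads. The level of Nr2f1 in that library was thus not detectable at this depth and not shown to be absent. Without that library the log2 difference was 3.52, and with a pseudocount of 5 in place of 1 it was 3.40. The fold was 28.6 in replicates 1 and 2 (log2 5.19) and 12.6 in replicates 3 to 5 (log2 3.53). Within same-numbered pairs 2 to 5 the atrial value was 15.6, 14.4, 11.4 and 12.3 times the ventricular one. The ventricular values there rest on 3, 16, 18 and 14 reads, so each fold is loosely fixed. The 3 reads have 95% counting limits of 0.62 to 8.77 reads. Pair 1 has no fold, as its ventricular value was 0.

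Nr2f2 was the most abundant member in atrial libraries and the one that varied most. It lies on the minus strand of chromosome 7 (ENSMUSG00000030551.14, chr7:70351944-70366735). Atrial replicates 1 to 5 held 178, 178, 590, 555 and 622 normalized reads, from 124 to 1039 reads. Ventricular replicates 1 to 5 held 34.6, 51.2, 92.3, 145 and 133, from 10 to 217 reads. The lowest atrial value exceeded the highest ventricular one by 32.9, although these come from different library sets. Within a set the gap was wider, 127 for the shallow and 410 for the deep set. The means were 425 ± 226 and 91.2 ± 48.6 (SD, n = 5), which is 4.66-fold. The log2 difference was 2.18 ± 0.50 (limma, adjusted p = 0.0137).

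The chamber fold of Nr2f2 was close in both library sets while its level was not. The atrial mean was 4.15 times the ventricular mean in replicates 1 and 2 (log2 2.06) and 4.77 times in replicates 3 to 5 (log2 2.27). Same-numbered pairs gave 5.14, 3.49, 6.39, 3.83 and 4.68. With the replicate number as a block the difference kept its size and its error fell to 0.13 (limma, adjusted p = 1.24e-05). With the library set as a term in place of the block, the error was 0.14 (limma, adjusted p = 5.16e-07). Between the sets, Nr2f2 was higher in replicates 3 to 5 than in replicates 1 and 2 by 1.61 ± 0.14 on the log2 scale with chamber as a term (limma, adjusted p = 4.00e-06). With libraries scaled to equal totals this set difference was 1.30 (limma, adjusted p = 2.79e-05). Of all genes tested, 52.7% differed between the sets by this test. The same term was 1.12 for Nr2f1 (limma, adjusted p = 0.0948) and 0.06 for Nr2f6 (limma, adjusted p = 0.730), which did not pass. The labels name no cause of the sets, and Rn45s share and depth move with them.

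Nr2f6 went the other way, and its difference was the smallest. It lies on the minus strand of chromosome 8 (ENSMUSG00000002393.14, chr8:71374123-71381960). Atrial replicates 1 to 5 held 52.4, 44.6, 48.9, 66.0 and 57.3 normalized reads, from 31 to 112 reads. Ventricular replicates 1 to 5 held 79.6, 95.1, 88.6, 75.5 and 78.5, from 23 to 143 reads. The groups did not overlap, but the highest atrial and the lowest ventricular value were 9.47 apart, both from replicate 4. The means were 53.8 ± 8.25 and 83.4 ± 8.13 (SD, n = 5), 1.55-fold higher in ventricular libraries. The log2 difference was -0.63 ± 0.15 (limma, adjusted p = 0.0150). The ventricular excess was 1.80-fold in replicates 1 and 2 and 1.41-fold in replicates 3 to 5. The call ended when libraries were scaled to equal totals (-0.56, limma, adjusted p = 0.0514) and within replicates 1 and 2 alone (-0.83, limma, adjusted p = 0.250). In replicates 3 to 5 alone it held (-0.49, limma, adjusted p = 0.00206).

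No member's chamber difference was shown to depend on the library set. The interaction of chamber and set was -1.65 ± 0.94 for Nr2f1 (limma, adjusted p = 0.364), 0.21 ± 0.29 for Nr2f2 (limma, adjusted p = 0.743) and 0.34 ± 0.26 for Nr2f6 (limma, adjusted p = 0.514). Of all genes tested, 5.21% passed this interaction test. The error for Nr2f1 is wide enough that a set difference of its estimated size could not be told from none.

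**Figure D2:**
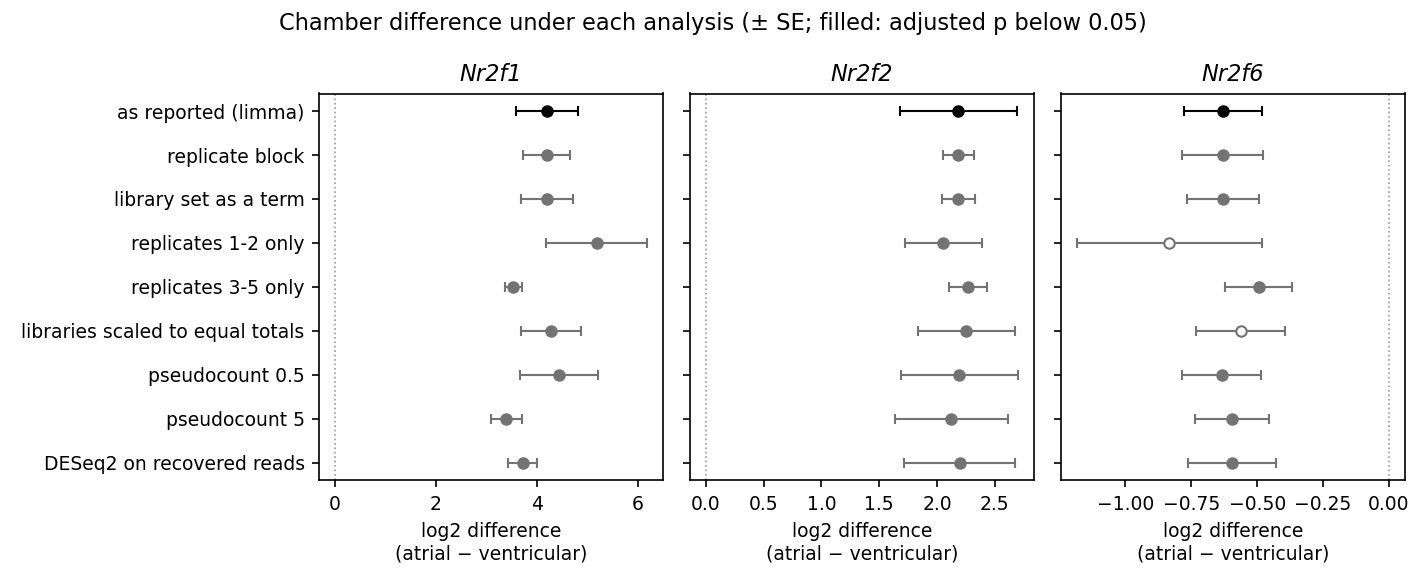
Log2 chamber difference (horizontal axis, atrial minus ventricular, ± SE, scaled separately for each gene) of the COUP-TF genes under the reported analysis (black) and 8 alternatives (grey, 1 row each); filled points have an adjusted p below 0.05. Nr2f1 and Nr2f2 stay to the right of 0 and filled in every row, and Nr2f6 stays to the left, with open points in replicates 1 and 2 alone and with equal totals.

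The members also differed from each other in their chamber difference. The log2 ratio of 2 genes within a library was compared between chambers by an exact two-sided permutation test over every way to divide the libraries 5 against 5, adjusted over 3 ratios. The Nr2f2 to Nr2f6 ratio was 2.75 ± 0.84 in atrial and -0.06 ± 0.95 in ventricular libraries (SD, n = 5), a difference of 2.81. The Nr2f1 to Nr2f6 ratio was 1.13 ± 0.29 and -3.70 ± 1.51, a difference of 4.83, which was 4.17 without ventricular replicate 1 and 3.99 with a pseudocount of 5. The Nr2f2 to Nr2f1 ratio was 1.63 ± 0.81 and 3.64 ± 0.95, a difference of -2.01, so the chamber difference of Nr2f1 was the larger of the pair. In each ratio the groups did not overlap and the exact permutation p was 0.00794, adjusted 0.00794, the smallest that this design can give. For the ratios to Nr2f6 this outcome was fixed in advance, as the members' own ranges lay apart in opposite directions. Those p-values add nothing to the results of the single genes. Only the test of Nr2f2 to Nr2f1 was open. For Nr2f2 to Nr2f1 the separation was thin, with 2.54 the highest atrial and 2.65 the lowest ventricular value. In replicates 3 to 5 alone that difference was -1.26, where the smallest exact permutation p is 0.1.

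Per kb of merged exons, the order of the family's means changed between the chambers. The order depends on the length used, 8625 bases for Nr2f2, 5093 for Nr2f1 and 2983 for Nr2f6. Without a length, Nr2f2 had the highest mean in both chambers, in ventricular libraries at 91.2 normalized reads against 83.4 for Nr2f6. That ventricular order differed by library set. Nr2f2 averaged 42.9 against 87.3 for Nr2f6 in replicates 1 and 2, and 123 against 80.9 in replicates 3 to 5. Normalized reads per kb of merged exons averaged 49.2 ± 26.2 for Nr2f2, 23.4 ± 3.99 for Nr2f1 and 18.0 ± 2.77 for Nr2f6 in atrial libraries (SD, n = 5). In ventricular libraries the same level averaged 28.0 ± 2.73 for Nr2f6, 10.6 ± 5.63 for Nr2f2 and 1.49 ± 0.90 for Nr2f1. Atrial levels of Nr2f1 and Nr2f6 overlapped between libraries, from 18.7 to 28.0 and from 15.0 to 22.1. Atrial Nr2f2 ran from 20.6 to 72.1 and overlapped Nr2f1, which was the higher of the pair in replicate 2 (22.3 against 20.7). In ventricular libraries none of the neighbours in the order overlapped with this length. Among 12205 tested genes with a length, atrial Nr2f2 stood above 64.2% in this level, Nr2f1 above 42.4% and Nr2f6 above 34.9%. Ventricular Nr2f6 stood above 48.4%, Nr2f2 above 23.3% and Nr2f1 above 1.73%.

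As shares of the family's reads per kb, atrial libraries averaged 50.7% Nr2f2, 27.7% Nr2f1 and 21.6% Nr2f6. By library set, Nr2f2 and Nr2f1 were level in atrial replicates 1 and 2, at 36.0% and 35.7%. In atrial replicates 3 to 5 they averaged 60.6% and 22.4%. Ventricular libraries averaged 71.2% Nr2f6, 25.3% Nr2f2 and 3.50% Nr2f1, with Nr2f6 at 84.1% in replicates 1 and 2 and 62.5% in replicates 3 to 5. Nr2f6 took 14.5% to 30.9% of the family in atrial and 56.9% to 86.9% in ventricular libraries, ranges that lie apart. The share of Nr2f2 overlapped between the chambers, at 35.7% to 64.3% in atrial and 13.1% to 37.8% in ventricular libraries. Within a set it did not overlap. It was 35.7% to 36.3% atrial and 13.1% to 15.1% ventricular in replicates 1 and 2. In replicates 3 to 5 it was 56.7% to 64.3% and 25.3% to 37.8%. The length of the first coding transcript was also used in place of merged exons, a choice made after seeing the data. With it Nr2f2 took 58.2% of the atrial and 33.3% of the ventricular share, and the order of the means in each chamber was the same. Ventricular levels per kb then overlapped, from 34.04 to 42.86 for Nr2f6 and from 8.19 to 34.35 for Nr2f2. In ventricular replicate 4 Nr2f2 was then the higher of the pair.

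**Figure D3:**
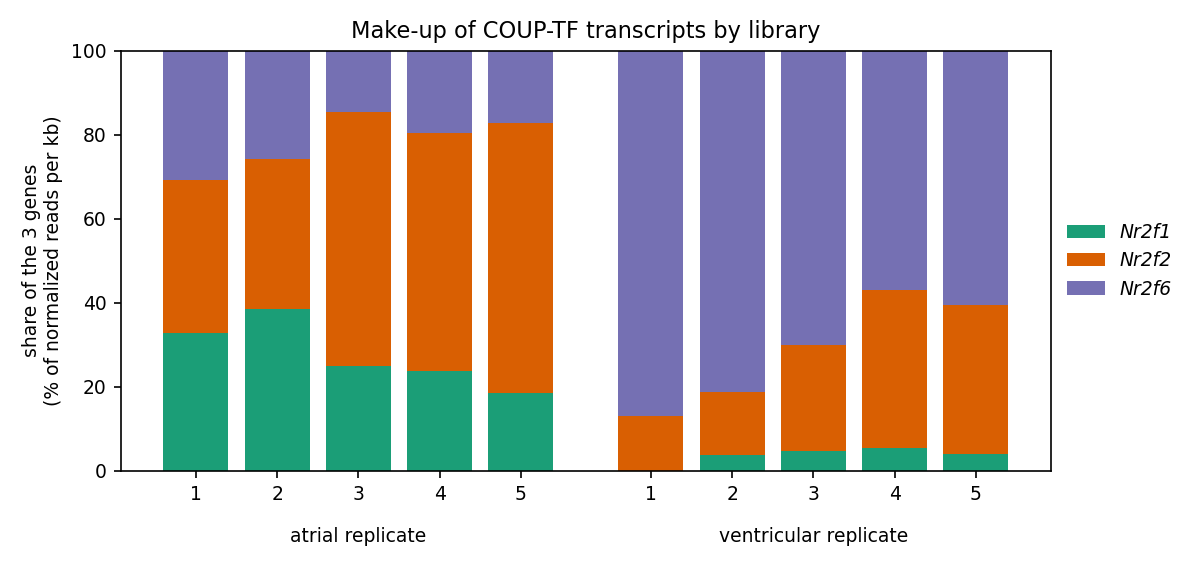
Share of each COUP-TF gene (vertical axis, percent of the 3 genes' normalized reads per kb) in each of 10 libraries, 1 bar a library, by chamber and replicate. Nr2f6 (purple) makes up 56.9% to 86.9% of ventricular and 14.5% to 30.9% of atrial bars, and Nr2f1 (green) 0% to 5.31% of ventricular and 18.6% to 38.5% of atrial bars.

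Each member shares ground with a gene on the opposite strand, and the strand setting of the counting is not given in the sources used here, so reads of overlapping genes cannot be told apart with certainty. The antisense gene A830082K12Rik (chr13:78198017-78279391, plus strand) overlaps Nr2f1 over 1741 bases, 123 of them exonic in both. It held 29.0, 34.5, 42.6, 44.2 and 38.6 normalized reads in atrial replicates 1 to 5 and 0, 0, 2.48, 4.01 and 6.80 in ventricular ones. Like Nr2f1 it was higher in every atrial library, by 3.84 ± 0.59 on the log2 scale (limma, adjusted p = 0.00129). B130024G19Rik (chr7:70364910-70489972, plus strand) overlaps Nr2f2 over 1826 bases, 643 exonic in both. It averaged 23.1 atrial and 8.54 ventricular normalized reads, a log2 difference of 1.42 ± 0.88 (limma, adjusted p = 0.365), and its atrial values were highest in replicates 1 and 2, where Nr2f2 was lowest. Ocel1 (chr8:71371298-71379361, plus strand) overlaps Nr2f6 over 5239 bases, 1622 exonic in both. It averaged 29.5 atrial and 37.0 ventricular normalized reads, a log2 difference of -0.23 ± 0.38 (limma, adjusted p = 0.801).

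Upstream sequence is shown for the members whose RefSeq window does not lie wholly inside their annotated gene. The Nr2f2 window lies outside its gene. The last few bases of the Nr2f6 window lie inside its gene, which is annotated up to position 71381960. These are the 250 bases before the RefSeq start (GRCm38.p6) of Nr2f2 and Nr2f6, with CpG dinucleotides in capitals.
Nr2f2 (chr7:70366747-70366996, minus strand): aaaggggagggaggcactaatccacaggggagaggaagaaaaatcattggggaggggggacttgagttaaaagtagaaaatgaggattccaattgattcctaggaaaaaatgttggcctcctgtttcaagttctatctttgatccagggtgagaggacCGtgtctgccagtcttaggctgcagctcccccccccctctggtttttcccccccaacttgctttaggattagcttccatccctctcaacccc
Nr2f6 (chr8:71381953-71382202, minus strand): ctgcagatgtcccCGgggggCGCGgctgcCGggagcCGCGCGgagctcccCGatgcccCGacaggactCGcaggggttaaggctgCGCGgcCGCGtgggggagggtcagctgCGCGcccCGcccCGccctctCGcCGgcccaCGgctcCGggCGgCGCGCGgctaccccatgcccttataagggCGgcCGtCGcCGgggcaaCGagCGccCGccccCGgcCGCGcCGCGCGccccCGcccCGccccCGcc
The Nr2f2 window held 1 CpG at a GC content of 50%, and the Nr2f6 window 42 at 82.4%. The median over all 32851 listed windows of that length was 6 CpG dinucleotides and 52.4% GC. Searched on both strands, the receptor half-site AGGTCA had 0 matches in each window of the 3 genes, against a match in 14.02% of all windows. The motif GGGCGG, searched after the sequences had been seen, had 7 matches upstream of Nr2f6 and 0 upstream of Nr2f2, against at least 1 match in 32.7% of all windows. Nr2f1 has 2 listed windows, both inside its annotated gene and so not printed. The first held 22 CpG dinucleotides at 72% GC with 1 GGGCGG match, and the other 2 at 39.6% GC with 0.

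Among nuclear receptors the COUP-TF genes stood near both ends of the range. Of 46 other receptor genes, 31 were tested: 3 were called atrial, 1 was called ventricular and 27 did not pass (limma). Their median log2 difference was -0.03, beside -0.01 over all genes tested, and 12.9% were called, beside 14.7% of all genes. With the replicate block 7 were called atrial and 7 ventricular, where 32.3% of all genes were called. Ranked by log2 difference among all 34 receptors tested, Nr2f1 had rank 1 and Nr2f2 rank 3 toward atrial cells, with Vdr between them, and Nr2f6 had rank 5 toward ventricular cells. Vdr, the vitamin D receptor, averaged 87.1 ± 36.8 atrial and 17.4 ± 8.84 ventricular normalized reads (SD, n = 5), which is 2.27 ± 0.41 on the log2 scale (limma, adjusted p = 0.00330). Rora, a receptor of the circadian clock, differed by 0.85 (limma, adjusted p = 0.0153), and Rarb, a retinoic acid receptor whose gene overlaps Top2b, by 0.48 (limma, adjusted p = 0.0112).

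**Figure D4:**
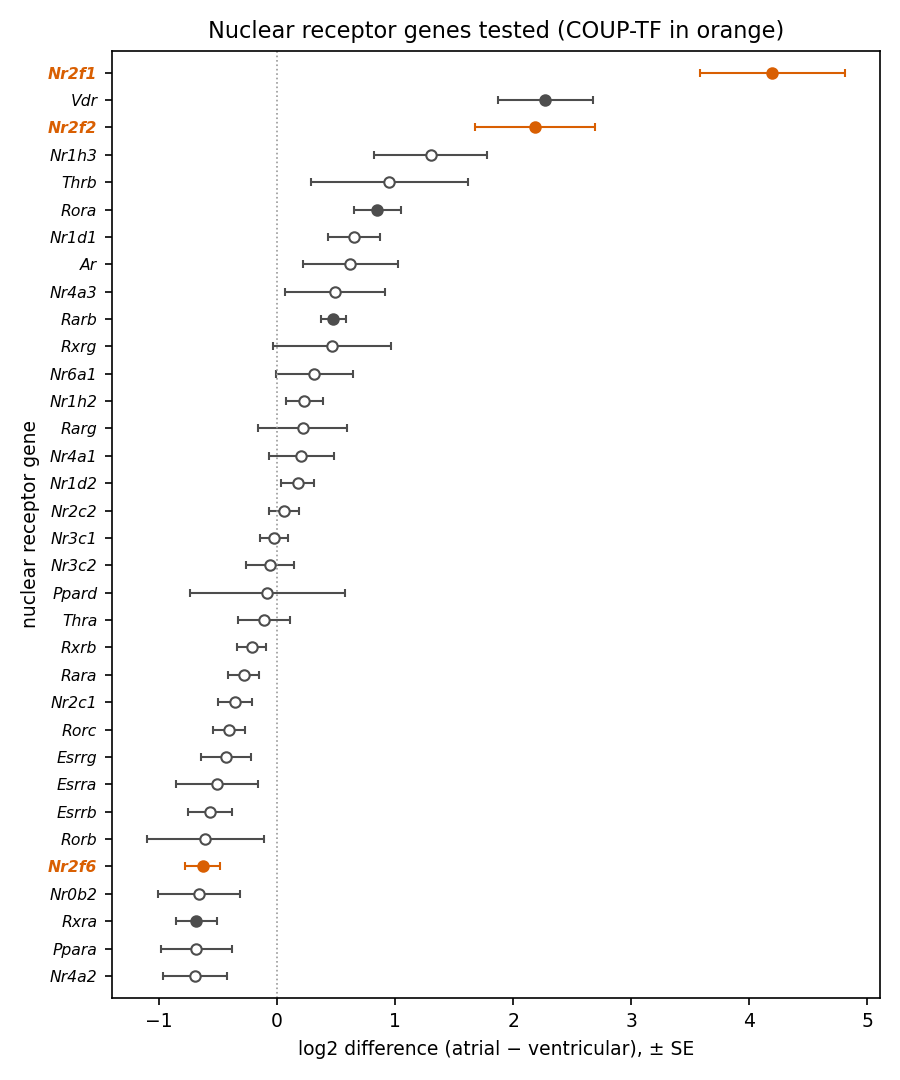
Log2 chamber difference (horizontal axis, atrial minus ventricular, ± SE) of the 34 nuclear receptor genes tested, 1 row each in order of the difference; COUP-TF genes are orange, and filled points have an adjusted p below 0.05 (limma). Nr2f1 at 4.19 and Nr2f2 at 2.18 lie at the atrial end and Nr2f6 at -0.63 lies near the ventricular end.

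Within the NR2 subfamily, to which COUP-TFs belong, 5 of 9 other genes were tested and 1 was called. That is 20%, beside 14.7% of all genes tested. Rxra, a retinoid X receptor and dimer partner of many nuclear receptors, averaged 173 ± 37.3 atrial and 274 ± 37.6 ventricular normalized reads (SD, n = 5), which is -0.68 on the log2 scale (limma, adjusted p = 0.0213). Its direction and size were near those of Nr2f6. The others were Nr2c1 at -0.36, Rxrb at -0.21, Nr2c2 at 0.06 and Rxrg at 0.47 on the log2 scale, none called. Hnf4a, Hnf4g, Nr2e1 and Nr2e3 averaged below 10 normalized reads and were not tested.

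Genes that supply, clear or bind retinoids were listed because COUP-TF and retinoid receptors share DNA sites. Of 19 listed, 12 were tested, with Rarb toward atrial and Rxra toward ventricular cells (limma) and a median of 0.30. These calls were 16.7% of the genes tested here, near the 14.7% of all genes. With the replicate block the counts were 2 and 3 of 12, again beside 32.3% of all genes. Aldh1a2, which makes retinoic acid, averaged 624 atrial and 602 ventricular normalized reads, a log2 difference of 0.41 ± 0.68 (limma, adjusted p = 0.802). The Cyp26 genes, which clear retinoic acid, were below the filter.

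Of 16 cofactors of COUP-TF and other receptors, all tested, 0 were called atrial and 1 ventricular (limma; 3 and 1 with the replicate block, beside 32.3% of all genes), with a median of 0.03. The atrial count was also 0 at an unadjusted p under 0.05 in limma, and 0 by edgeR and by DESeq2. The called gene was Bcl11b (CTIP2), a zinc finger protein that binds COUP-TFs, at 11.99 ± 5.07 atrial and 36.5 ± 16.0 ventricular normalized reads (SD, n = 5), which is -1.50 on the log2 scale (limma, adjusted p = 0.0155), with overlapping groups. Zfpm2 (FOG2), a heart cofactor that also binds Nr2f2, averaged 293 and 303 normalized reads, a log2 difference of -0.09 ± 0.36 (limma, adjusted p = 0.933).

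Venous and arterial genes studied with Nr2f2 in vessels showed no shared direction. Of 11 listed, 10 were tested, with a median of 0.13. In limma 2 were called atrial and 1 ventricular, or 4 and 1 with the replicate block. Of all genes tested, 14.7% were called, and 32.3% with the block. Angpt1, a ligand of the Tie2 receptor, averaged 3421 ± 399 atrial and 199 ± 33.7 ventricular normalized reads (SD, n = 5), which is 4.11 ± 0.14 on the log2 scale (limma, adjusted p = 3.52e-08). Tek, which encodes Tie2, differed by 1.01 ± 0.29 (limma, adjusted p = 0.0407), and Nrp1, a coreceptor of VEGF, by -0.86 ± 0.18 (limma, adjusted p = 0.00877). The venous receptor Ephb4 averaged 294 and 218 normalized reads, a log2 difference of 0.41 ± 0.13 that did not pass (limma, adjusted p = 0.0664) but did with the replicate block (limma, adjusted p = 0.0141).

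Other cell types of the heart also express COUP-TF genes, and some markers of several differed with chamber. Over all genes tested, 14.7% were called, and 32.3% with the replicate block. The endothelial counts below were near these shares. Summed cardiomyocyte markers (7 genes, Myh6 the highest) ran from 290416 to 778482 normalized reads in atrial and from 323452 to 678446 in ventricular libraries. Endothelial markers summed to 1090 to 3608 atrial and 1012 to 1924 ventricular, with 1 of 10 tested called atrial (Kdr), and 4 of 10 with the replicate block. Endocardial markers summed to 510 to 1261 and 87.7 to 446, with 1 of 2 called atrial (Npr3), and epicardial markers to 2749 to 6663 and 747 to 2744, with 5 of 7 called atrial. The called markers of these 3 lists went in the direction of Nr2f1 and Nr2f2, while the endothelial sums of the chambers overlapped and Cdh5 (-0.87), Pecam1 (-0.48), Prox1 (-0.18) and Nfatc1 (-0.19) had log2 differences of the other sign, none called. The part of these cell types in the Nr2f1 and Nr2f2 results was not tested. In atrial replicates 1 and 2, where Nr2f2 was lowest at 178 in each, these sums took both the highest and the lowest atrial values. The endothelial sum was 3608 in replicate 1 and 1090 in replicate 2, the endocardial sum 1261 and 510, and the epicardial sum 2749 and 6663. The atrial replicates 3 to 5, where Nr2f2 was 555 to 622, held values between these. Fibroblast marker sums did move with Nr2f2, at 13845 and 21755 in atrial replicates 1 and 2 and 30905 to 32936 in atrial replicates 3 to 5. In ventricular replicates 1 to 5 they were 5775, 14078, 38140, 49629 and 43298. Atrial smooth muscle, immune and cardiomyocyte sums went the other way, higher in replicates 1 and 2. The part of any of these in the Nr2f2 set difference was not tested.

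In the direction of Nr2f6, smooth muscle and pericyte markers summed to 1433 to 5164 in atrial and 8898 to 15148 normalized reads in ventricular libraries, with 2 of 6 called ventricular (3 with the replicate block). Fibroblast markers summed to 13845 to 32936 and 5775 to 49629, with 2 of 7 called ventricular (3 with the block). Neuronal markers summed to 51.8 to 103 and 36.4 to 63.4, with 1 of 2 tested called atrial, and immune markers to 76.6 to 168 and 22.9 to 135, with 1 of 3 tested called atrial. Of the cardiomyocyte markers 1 of 7 was called, ventricular (3 with the block). Beside all these counts, 14.7% of all genes tested were called, and 32.3% with the block. No marker of any list was at 0 in all libraries, and the part of these cell types in the Nr2f6 difference was not tested.

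The genes whose profiles over the 10 libraries were most like each member were found by the root mean square difference of log2 values centred on each gene's mean, over 12007 genes. Nearest to Nr2f1 were Rd3l (0.50), Gata5 (0.61), Shox2 (0.62), Serpinb8 (0.71) and Slc17a7 (0.72), where the median gene was at 2.34. Gata5 is a cardiac GATA factor, and Shox2, which overlaps Rsrc1, a factor of the sinus node. Nearest to Nr2f2 were Pla2g4e (0.30), Cgn (0.30), Extl1 (0.30), Igfbp5 (0.31) and Arfgef1 (0.31), with a median of 1.39. Nearest to Nr2f6 were Aldh5a1 (0.12), Cep128 (0.12), Dhdds (0.13), Usp13 (0.13) and Pex19 (0.14), with a median of 0.52. No gene was among the 5 nearest of more than 1 member, and Nr2f2 itself ranked 106 in likeness to Nr2f1. These distances describe 10 libraries that share chamber and library set.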

How the data were processed

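Total RNA of atrial and ventricular cardiomyocytes was extracted with Trizol, cleaned on Zymo columns and made into ScriptSeq v2 libraries, per the labels' protocols. Trimmomatic, HISAT2 and featureCounts on GRCm38 (mm10) are named in the submitters' processing notes, without a version, annotation or strand setting. Each deposited signal is a gene's read count after division by the library's DESeq2 size factor, per the file headers. Dividing by each library's smallest step gave whole reads within 0.01 for 100% of values, which gave the depth. A value of 0 was taken to allow up to 3 reads, 1.70 to 10.4 normalized reads by library. This covers counting error only, and the upper 95% counting limit of 0 reads is somewhat higher, at 3.69 reads.

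Symbols were matched to GENCODE M21 (GRCm38), 24321 of 25239, for positions and merged exon lengths. Genes averaging at least 10 normalized reads were tested with limma 3.58.1 (R 4.3.3; trend, robust, two-sided) on log2(normalized reads + 1), and p-values were adjusted by Benjamini-Hochberg and called at 0.05. The log2 scale understates changes of low genes. The alternatives were edgeR 4.0.16 (TMM) and DESeq2 1.42.0 on the recovered reads, other pseudocounts, filters and scaling, a replicate block, a library set term, each library set alone, and each library left out. Scripts were tested on simulated data.

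Replicate numbers come from the labels. Deviations of same-numbered libraries from their group means correlated at 0.582, 0.637, 0.623, 0.556 and 0.631, all over 0.1. On that rule the numbers were used as a block, and blocked values are printed where they change a call or count. Libraries of the same set share the set difference, so these correlations cannot tell pairing by number from membership of a set. For atrial replicates 4 and 5 the closest ventricular library was replicate 3, not the one of their own number. Replicates of a group differed beyond sampling noise (chi-square per degree of freedom 2.24 or more in 20 pairs) and were counted separately.

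The members, gene lists and tests were chosen with earlier results of these data known. Named genes are the members, up to 4 called genes of each list by adjusted p (or the 2 with the smallest p), NR2 genes, the 5 most alike genes per member, overlapping genes and genes within 100 kb, Rn45s and the highest marker of a list. Kcna5, Ephb4, Aldh1a2, Zfpm2, Cdh5, Pecam1, Nfatc1 and the Cyp26 genes were named outside this rule, with their values seen.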

Additional observations from a re-analysis of the deposited data

Results flagged for a closer look

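In 3 of 34 groups of 5 libraries, a single library stood apart, its gap to the nearest value being more than 0.71 of the group's range. Chance flags about 1 in 20 groups. The Nr2f1 to Nr2f6 log2 ratio of ventricular replicate 1 was -6.33, where the other ventricular libraries ran from -3.53 to -2.55. That library held 0 reads of Nr2f1 and 23 of Nr2f6, at the lowest depth of all, 1790402 reads. Summed cardiomyocyte markers reached 778482 normalized reads in atrial replicate 1, against 290416 to 401301 in the other atrial libraries. Summed immune markers reached 168 in the same library, against 76.6 to 97.9 in the others. Atrial replicate 1 held 95.2 normalized reads of Nr2f1, the lowest atrial value, and 178 of Nr2f2, level with atrial replicate 2.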

How the results depend on the processing

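Nr2f1 and Nr2f2 kept their direction and their call in all 21 alternatives run, with log2 differences of 3.40 to 5.19 and 1.89 to 2.44. Nr2f6 kept its direction in all 21 and its call in 19, at -0.83 to -0.49; the exceptions were equal totals (-0.56) and replicates 1 and 2 alone (-0.83), and the cause was not tested. With each library left out in turn, the differences ran from 3.52 to 4.45 for Nr2f1, 1.89 to 2.44 for Nr2f2 and -0.71 to -0.57 for Nr2f6, the genes called over the whole table from 1365 to 1938, and the ratio differences from 2.54 to 3.07 (Nr2f2 to Nr2f6), -2.26 to -1.63 (Nr2f2 to Nr2f1) and 4.17 to 5.11 (Nr2f1 to Nr2f6). Genes called numbered 1824 in the reported analysis, 4017 with the replicate block, 3955 with library set as a term, 638 in replicates 1 and 2 alone and 6561 in replicates 3 to 5 alone. With equal totals 65.3% of calls were atrial, against 55.3%. Permuting within the replicate block left the ratio differences at 2.81, -2.01 and 4.83 with exact permutation p = 0.0625, the smallest that design can give. Replicates 3 to 5 alone gave 2.77, -1.26 and 4.03 with exact permutation p = 0.1, again the smallest possible. For the ratios to Nr2f6 these p-values too were fixed in advance by the separate ranges of the members. The block changed no member's call. Depth limits the ventricular level of Nr2f1 most, which rests on 0 to 18 reads a library.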

Other observations

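Of the genes within 100 kb of the members, 9 were tested and do not overlap a member. All but Fam172a lie near Nr2f6 and none lies near Nr2f2, so the counts describe mostly the surroundings of Nr2f6. Without the replicate block 0 of the 9 were called by limma, edgeR or DESeq2, where 14.7% of all genes were called by limma. An unadjusted p under 0.05 was found for 1 (Mrpl34, limma). With the block 3 of 9 were called by limma (Mrpl34, Dda1 and Abhd8), where 32.3% of all genes were. Near Nr2f1, Fam172a, whose end lies 22737 bases away, had a log2 difference of 0.16. Near Nr2f6, Use1 (0.08), Babam1 (-0.02) and Myo9b (-0.06) had the smallest differences on the log2 scale. Mrpl34, a mitochondrial ribosomal protein gene, averaged 62.6 atrial and 89.6 ventricular normalized reads, a log2 difference of -0.51 (limma, adjusted p = 0.105; 0.0135 with the replicate block). Dda1 went the other way at 0.45 (limma, adjusted p = 0.194; 0.0247 with the block), as did Abhd8 at 0.35 (limma, adjusted p = 0.505; 0.0494 with the block). Ushbp1, 2311 bases from Nr2f6, averaged 2.48 atrial and 11.7 ventricular normalized reads and was below the filter.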
